A study of Mus musculus with 12 samples.

Results

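Junctions between the 5′ end of Sμ and the Sγ2b switch region were taken from the 6 libraries of splenic B cells stimulated with LPS plus αIgD-dextran. A junction was a member if its prey lay on chromosome 12 at positions 114536001 to 114556000 of the AJ851868/mm9 hybrid genome, a span of 20 kb. The rule used the position alone and no measured difference between genotypes. It found 4479 junctions of the 53012 in the 12 lists of the series, and 3187 of them came from WT and 1292 from 3′IgH CBEs-deleted cells. The 6 LPS libraries held 22851 junctions within the constant-region part of the IgH locus (chr12:114400001-114700000).

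In CSR-HTGTS-seq, fragments of genomic DNA are copied outward from a primer in 5′Sμ, so that every read runs from a known bait into its prey, the sequence on the other side of the joint. The donors were TC1 ES cells, a 129/SV line, and chimeras were made so that host cells contribute no mature B cells to the spleen. In the 3CBEsD cells every CTCF-binding element (CBE) at the 3′ end of the IgH locus was deleted on both alleles. Cells of both genotypes were AID-proficient, were enriched from spleen by removal of CD43-positive cells and were kept for 96 h in LPS/αIgD-dextran, with 3 libraries for each genotype. The number of ES clones behind each genotype, and whether the 3 repeats were separate mice, was not given in the sources used here, so the spread between libraries may be technical. The age of the chimeras was not given either.

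In class switching, a B cell changes the heavy-chain class of its antibody while the variable part stays the same: DNA is broken in Sμ and in a second switch region, and the ends are rejoined so that another constant gene follows the variable exon. AID, the cytidine deaminase that starts the reaction, acts on transcribed switch DNA, which is repetitive, rich in G on the sense (non-template) strand and dense in AGCT. Broken ends are then joined by end joining, either directly, across a few shared bases (microhomology) or with bases inserted between them. LPS directs switching to Sγ3 and Sγ2b, and αIgD-dextran adds a signal through surface IgD. A deletional joint keeps the prey in the orientation of the bait and yields a productive switch. An inversional joint holds the prey in the opposite orientation.

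The sequence of the region was checked against its name. The hybrid genome was not used here, so its bases were rebuilt from the prey bases that aligned without mismatch, which gave 8888 of the 20000 positions of the region and all 3000 positions from 114546001 to 114549000, the 3 fullest 1-kb bins and here called the core. On the sense strand of IgH the core held 38.4% G and 14.9% C, with 88 AGCT motifs. The 300 bases with the most junctions lay at chr12:114546944-114547243 and held 1119 of the 4479 junctions (24.98%). They are printed on the minus strand, which is the IgH sense strand, with AGCT in capitals, because 1 in 4 Sγ2b junctions fell within them:
Densest Sγ2b stretch: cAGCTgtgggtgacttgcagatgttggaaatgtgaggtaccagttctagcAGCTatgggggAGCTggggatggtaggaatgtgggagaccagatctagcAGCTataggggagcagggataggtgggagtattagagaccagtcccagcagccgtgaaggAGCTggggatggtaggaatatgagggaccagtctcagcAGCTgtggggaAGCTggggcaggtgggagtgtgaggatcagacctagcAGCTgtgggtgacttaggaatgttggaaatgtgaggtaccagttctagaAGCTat
This stretch held 9 AGCT motifs and 54.0% G plus C. It matched mm9 exactly once, at chr12:114549527-114549826, where the annotation places no gene, and a second mm9 copy at chr12:114550310-114550609 was identical at 299 of 300 bases. In the rebuilt hybrid sequence the best other stretch was identical at 228 of 300 bases. The constant gene downstream is annotated in mm9 as Ighg, minus strand, at chr12:114544600-114546144. These mm9 positions are not those of the hybrid genome, in which the bins are given. For 144 short stretches with a single match, from 114541900 to 114546480 of the hybrid, the mm9 position was 2045 bases higher. By that offset the gene lies downstream of the core and within the region. The surroundings of 1472 of the 4479 junctions matched mm9 once and those of 2470 several times, and 12 of the 1472 lay within that gene, 10 from WT and 2 from deleted cells.

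The 5 single positions with the most junctions all lay in the core. They are shown on the sense strand with the first prey base in capitals, at the centre of 31 bases, because they are where breaks were recovered most often:
Position 114547136: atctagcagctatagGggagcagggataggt
Position 114546848: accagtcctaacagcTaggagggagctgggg
Position 114547182: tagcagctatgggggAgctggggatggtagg
Position 114547141: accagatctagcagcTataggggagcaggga
Position 114547186: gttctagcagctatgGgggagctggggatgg
The first of these was used by 22 junctions from 5 libraries, 13 from WT and 9 from deleted cells, with 17 different bait ends. The other positions were used by 19, 18, 17 and 15 junctions, and at 3 of the 5 positions the first prey base lay within an AGCT. Use was spread widely, since the junctions fell on 2010 distinct positions, of which 955 were used once. Of these positions, 1680 were used in WT and 919 in deleted cells, and the 589 used in both made up 35.1% of the WT and 64.1% of the deleted positions.

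A joint of each structure is shown at the first of these positions, with bait on the left and prey on the right, so that the classes counted further on can be seen in bases:
Direct joint, last bait base and first prey base in capitals: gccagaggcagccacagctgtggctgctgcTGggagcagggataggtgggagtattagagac
Insertion, inserted base in capitals: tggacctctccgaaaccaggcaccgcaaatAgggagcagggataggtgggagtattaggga
Microhomology, shared base in capitals: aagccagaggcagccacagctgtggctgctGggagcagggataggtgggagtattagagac
The bait ended at 114669180 in the direct joint, at 114669216 in the insertion and at 114669182 in the microhomology joint. These are bases as read, and the prey of the insertion differed from the rebuilt sequence at 1 of the 30 bases shown.

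Libraries were compared with each other before any test. WT replicates 2 and 3 had 214 identical Sγ2b junctions in common (same prey position, orientation, bait end and joint structure), out of 1016 and 1262 distinct junctions. The other 14 pairs of libraries had 3 to 20 in common, at most 2.37% of the smaller library. The main genotype differences are therefore also given with WT replicates 2 and 3 counted as 1 library and each identical junction once, which leaves 2 WT libraries against 3. Read names placed replicate 1 of both genotypes in one sequencing run and replicates 2 and 3 of both in another, so values within runs are given as well.

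In WT replicates 1, 2 and 3, 860, 1042 and 1285 Sγ2b junctions were recovered, which were 21.9, 21.1 and 21.1% of the junctions in the window. In 3′IgH CBEs-deleted replicates 1, 2 and 3, 339, 472 and 481 were recovered, or 16.2, 16.6 and 16.3%. The Sγ2b share of the window was lower in each deleted library than in each WT library, and the means differed by -4.96 percentage points (exact permutation test, two-sided, 3 libraries against 3, p = 0.1, the smallest this design allows). As a share of junctions outside Sμ, however, it was 15.98 points higher in deleted cells. Set against single regions, the direction depended on the region chosen. For each Sγ2a junction there were 0.951, 0.915 and 0.927 Sγ2b junctions in WT and 4.77, 4.63 and 5.01 in deleted cells, which was 5.16 times as many. For each Sγ3 junction there were 1.52, 1.53 and 1.46 in WT and 1.93, 2.18 and 1.91 in deleted cells (1.33 times). For each Sμ junction there were 0.5499, 0.514 and 0.522 in WT and 0.239, 0.244 and 0.237 in deleted cells (0.453 times). In all these ratios the libraries of the genotypes did not overlap (exact permutation test, two-sided, p = 0.1 each, adjusted p = 0.254 over 33 comparisons between regions). With WT replicates 2 and 3 as 1 library the share of the window differed by -4.97 points, and the 3 ratios were 5.20, 1.33 and 0.454 times those in WT, all without overlap.

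Sγ2b junctions were concentrated in the core, which held 4150 of them (92.7%). The core took up 91.6, 92.4 and 91.7% of the Sγ2b junctions in WT libraries 1 to 3 and 95.3, 95.3 and 93.1% in deleted libraries 1 to 3. The part downstream of the core, toward and including the constant gene, held 7.44, 7.01 and 7.24% in WT and 2.95, 3.602 and 5.82% in deleted cells. Every deleted library thus had a smaller downstream part and a larger core than every WT library (exact permutation test, two-sided, p = 0.1 each). The part upstream of the core, toward Iγ2b, held between 0.576 and 1.77% in the 6 libraries, and the genotypes overlapped. With WT replicates 2 and 3 as 1 library the downstream part was 7.21% in WT and 4.23% in deleted cells and the core 91.8 and 94.4%, and the upstream part, 0.958 and 1.32%, was then also without overlap.

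**Figure D1:**
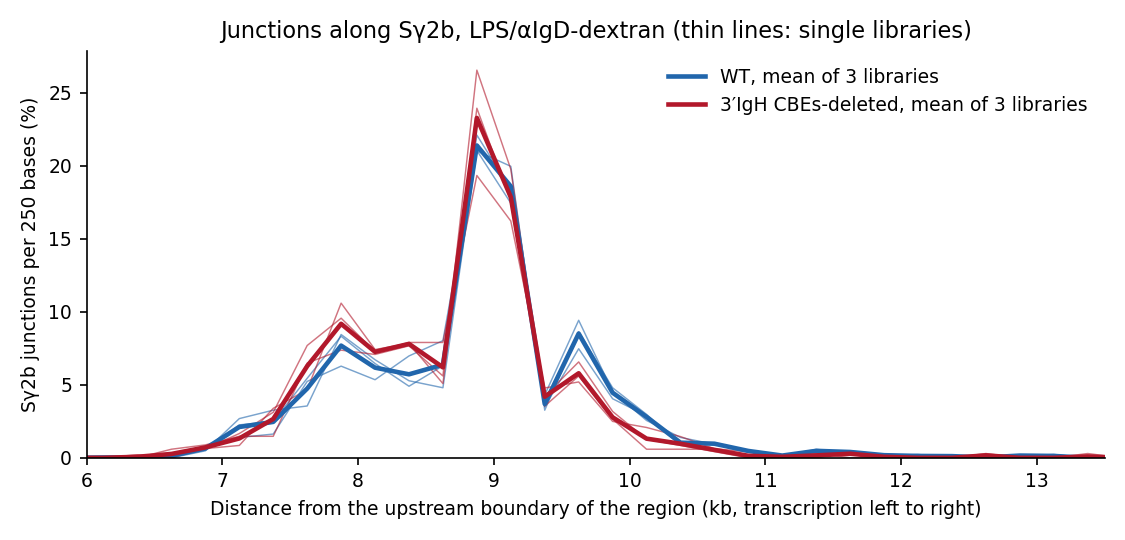
Percentage of the Sγ2b junctions of a library in each 250-base step (y axis) against the distance from the upstream boundary of the region in kb (x axis), with thin lines for the 6 libraries and thick lines for the mean of 3 libraries in WT (blue) and 3′IgH CBEs-deleted cells (red). Both genotypes have their summit near 9 kb. Downstream of it, the steps from chr12:114545751 to 114546500 are lower in every deleted library. Nearer the summit, in the steps from 114546501 to 114547000, the genotypes overlap.

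Position along Sγ2b was measured in bases from the upstream boundary of the region, in the direction of transcription. The median position was 8890.5, 8879 and 8870 in WT libraries 1 to 3 and 8818, 8860.5 and 8815 in deleted libraries 1 to 3. The median lay further upstream in every deleted library, and the means differed by -48.7 bases (exact permutation test, two-sided, p = 0.1, adjusted 0.222 over 40 measures and regions). Within the runs the difference was -72.5 bases for replicate 1 and -36.8 bases for replicates 2 and 3, and it was -51.5 bases with WT replicates 2 and 3 as 1 library. The interquartile range, 929.5, 997 and 987 bases in WT and 916.5, 955 and 1055 bases in deleted cells, overlapped between the genotypes. The mean position, which weights the sparse downstream part more, differed by -151 bases.

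The shift was resolved in 1-kb bins, each as a share of the junctions of its own region. Bins with at least 10 junctions over the 6 libraries were tested in Sμ, Sγ3, Sγ2b and Sγ2a by a two-sided Fisher's exact test on pooled junctions, and a bin was called where the adjusted p was under 0.05 and the libraries did not overlap. Of 35 bins, 22.9% were called lower and 17.1% higher in deleted cells. In Sγ2b, 2 of 7 bins were called lower and 1 higher, which is near those shares. The other 13 bins of the region held 18 junctions in all and were not tested. The pooled counts hold the junctions common to WT replicates 2 and 3 once for each library.

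The bin at chr12:114545001-114546000, 10 to 11 kb from the upstream boundary, held 46, 55 and 67 junctions in WT libraries 1 to 3, or 5.35, 5.28 and 5.21% of Sγ2b. In deleted libraries 1 to 3 it held 6, 12 and 22 junctions, or 1.77, 2.54 and 4.57%. Its mean share in deleted cells was 56.1% of that in WT (Fisher's exact test, adjusted p = 0.00640), although deleted replicate 3 came close to WT. The adjusted p was 0.0852 without deleted replicate 1 and 0.0871 without deleted replicate 2 (Fisher's exact test).

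The next bin upstream, chr12:114546001-114547000, was the second fullest. It held 35.7, 36.7 and 33.4% of Sγ2b junctions in WT libraries 1 to 3 and 31.6, 31.6 and 28.7% in deleted libraries 1 to 3, without overlap (Fisher's exact test, adjusted p = 0.0108). The fullest bin, chr12:114547001-114548000, moved the other way, with 41.4, 37.8 and 39.8% in WT and 46.9, 44.3 and 42.4% in deleted cells (Fisher's exact test, adjusted p = 0.0114). Neither bin kept its call without WT replicate 2 (Fisher's exact test, adjusted p = 0.0629 and 0.0705). The lower bin was also not called without deleted replicate 3 (Fisher's exact test, adjusted p = 0.118), nor the higher one without deleted replicate 1 (Fisher's exact test, adjusted p = 0.0937). With WT replicates 2 and 3 as 1 library and each identical junction once, the same 3 bins were called (Fisher's exact test, adjusted p = 0.0161, 0.00916 and 0.0152 from downstream to upstream).

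In the most upstream bin of the core, chr12:114548001-114549000, the share was 14.5, 17.9 and 18.5% in WT and 16.8, 19.5 and 22.04% in deleted cells, and the libraries overlapped (Fisher's exact test, adjusted p = 0.116). Without deleted replicate 1 this bin was called higher, at 17.0% in WT and 20.8% in deleted cells (Fisher's exact test, adjusted p = 0.0445). The fifth fullest bin was chr12:114544001-114545000, downstream of the core. It held 1.16, 1.15 and 1.32% in WT and 0.295, 0.636 and 0.832% in deleted cells, without overlap but short of the call (Fisher's exact test, adjusted p = 0.148). As a share of all junctions in the window, where 32.6% of 46 bins were called lower and 32.6% higher, 4 of the 7 Sγ2b bins were called lower in deleted cells and 0 higher. These were the bins from 114544001 to 114548000, at 37.2, 43.0, 66.7 and 86.1% of the WT share in order from downstream to upstream. The bins at 114548001 and 114549001 stood at 88.0 and 96.6% of WT and were not called (Fisher's exact test, adjusted p = 0.111 and 0.888).

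**Figure D2:**
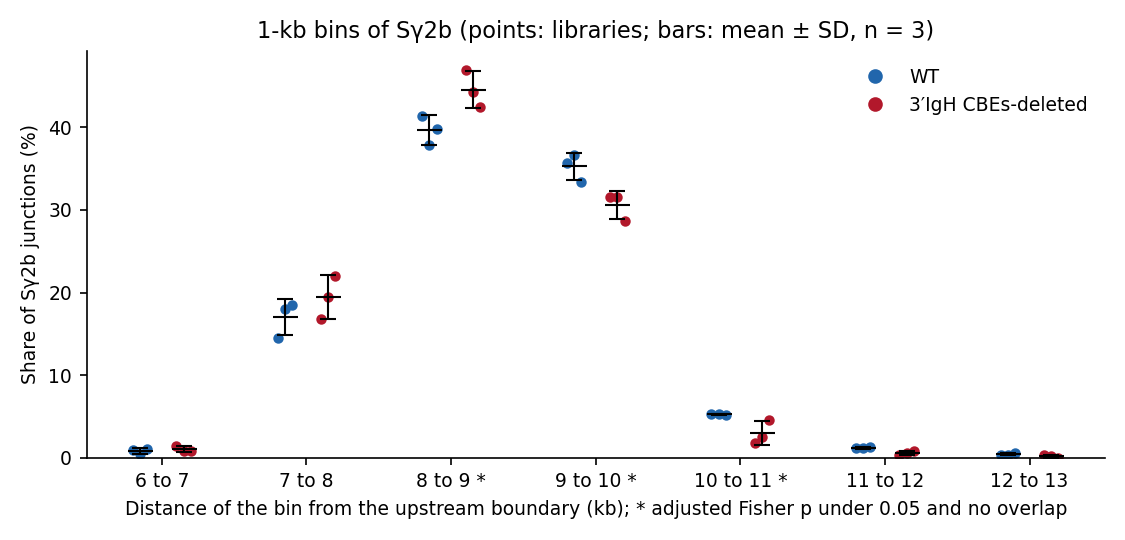
Share of the Sγ2b junctions (y axis, %) in each tested 1-kb bin, ordered by distance from the upstream boundary in kb (x axis), with points for libraries and bars for the mean ± SD of 3 libraries in WT (blue) and deleted cells (red). The bins at 9 to 10 and 10 to 11 kb are lower and the bin at 8 to 9 kb higher in every deleted library, and asterisks mark these 3 bins as called.

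The medians of the other switch regions were set beside that of Sγ2b. Deleted libraries 1 to 3 held only 176, 217 and 252 junctions in Sγ3 and 71, 102 and 96 in Sγ2a. The median in deleted cells differed from WT by -203 bases in Sγ3 and -295 bases in Sγ2a, further upstream as in Sγ2b, and by 494 bases in Sμ, further downstream, each without overlap. The Sγ2b shift was smaller than that of Sγ3 by 154 bases and smaller than that of Sγ2a by 246.5 bases (exact permutation of genotype labels over within-library differences, two-sided, p = 0.1 each, adjusted 0.254). The interquartile range was lower in every deleted library in Sγ3 and Sγ2a, with mean differences of -96.5 and -191 bases, whereas in Sγ2b it overlapped. The difference in range between Sγ2b and Sγ2a was itself without overlap (exact permutation test, p = 0.1, adjusted 0.254), and that between Sγ2b and Sγ3 was not (p = 0.2).

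Inversional joints were a minority in Sγ2b in all 6 libraries. In WT libraries 1 to 3 there were 70 of 860, 97 of 1042 and 118 of 1285, or 8.14% (Wilson 95% interval 6.49 to 10.2%), 9.31% (7.69 to 11.2%) and 9.18% (7.72 to 10.9%). In deleted libraries 1 to 3 there were 43 of 339, 51 of 472 and 54 of 481, or 12.7% (9.56 to 16.7%), 10.8% (8.31 to 13.9%) and 11.2% (8.71 to 14.4%). The inversional share was higher in each deleted library, although the counting intervals overlapped, and by 4.54, 1.496 and 2.04 percentage points for the same replicate numbers. It was 4.54 points higher within the first run and 1.77 points higher within the second, and 2.76 points higher with WT replicates 2 and 3 as 1 library. These intervals cover counting error only. Between libraries the means differed by 2.69 points (exact permutation test, two-sided, p = 0.1, adjusted 0.222). Pooled over libraries, 285 of 3187 WT and 148 of 1292 deleted joints were inversional (Fisher's exact test, p = 0.0119, adjusted 0.0597). The pooled test takes joints as independent and holds those common to WT replicates 2 and 3 once for each library.

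The inversional share varied along the core. In the bin at 114547001, which holds most of the densest stretch, it was 6.65 to 7.87% in WT and 6.86 to 9.09% in deleted libraries. In the bin downstream at 114546001 it was 8.47 to 10.0% in WT and 12.1 to 13.1% in deleted libraries, and in the bin upstream at 114548001 it was 9.60 to 13.9% and 11.96 to 21.1%. The central bin was therefore below both neighbours in every library of either genotype, and the genotypes did not overlap in the bin at 114546001 only. These bins were chosen after their values were seen and were not tested. Deletional and inversional joints had median positions of 8857 ± 33.2 and 8777 ± 254 bases (SD, n = 6 libraries). The inversional median lay further upstream in 4 of 6 libraries (two-sided exact sign-flip permutation test, p = 0.78125, adjusted 0.90625 over 5 comparisons of the orientations). It was 8260.5 bases in deleted replicate 3, and without that library the inversional median lay 16.1 bases further downstream on average.

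Most Sγ2b joints had microhomology. In WT libraries 1 to 3 the microhomology share was 56.9, 57.4 and 57.9%, and in deleted libraries 1 to 3 it was 53.1, 56.4 and 56.1%. Direct joints made up 25, 24.95 and 23.2% in WT and 26.8, 22.7 and 24.1% in deleted cells. Insertions made up 18.1, 17.7 and 18.9% in WT and 20.1, 20.97 and 19.8% in deleted cells. Direct joints overlapped between genotypes, while insertions were higher by 2.03 percentage points and microhomology lower, with a mean difference of -2.19 points. Both were without overlap (exact permutation test, two-sided, p = 0.1 each, adjusted 0.222). On pooled junctions neither difference passed (Fisher's exact test, p = 0.129 for insertions and 0.218 for microhomology, adjusted 0.323 and 0.363). The insertion difference was 1.92 and 2.08 points within the first and the second run and 1.66 points with WT replicates 2 and 3 as 1 library. The microhomology difference was -3.76 and -1.40 points within the runs and -1.72 points with WT replicates 2 and 3 as 1 library, and without deleted replicate 1 it shrank to -1.14 points. Among deletional joints alone, insertions and microhomology overlapped between the genotypes (exact permutation test, two-sided, p = 0.3 and 0.2).

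**Figure D3:**
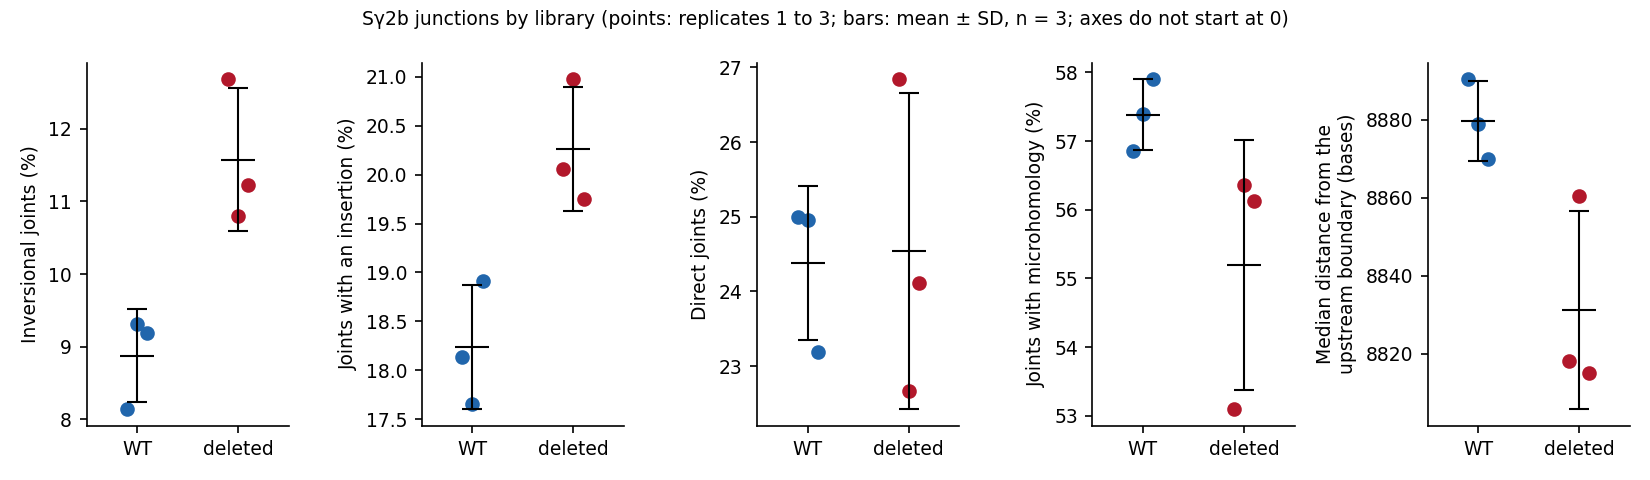
Inversional, insertion, direct and microhomology shares of Sγ2b joints in % and the median position in bases from the upstream boundary (y axes, which do not start at 0), with points for the 3 libraries and bars for the mean ± SD in WT and deleted cells. The inversional and insertion shares are higher, and the microhomology share and the median position lower, in every deleted library, while direct shares overlap.

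The lengths of the shared and inserted stretches overlapped between the genotypes. Microhomologies had a median of 2 bases in all 6 libraries and reached 10 to 14 bases. The mean microhomology length was 2.34, 2.204 and 2.14 bases in WT and 2.27, 2.37 and 2.26 bases in deleted cells (exact permutation test, two-sided, p = 0.4), and only without WT replicate 1 was it without overlap, at 0.128 bases higher in deleted cells. Joints with 4 or more shared bases made up 10.1, 9.79 and 8.25% in WT and 9.14, 9.11 and 9.36% in deleted cells (exact permutation test, p = 0.9), and without WT replicate 3 the genotypes did not overlap, with a difference of -0.749 points. Inserted stretches had a median of 2 bases in all 6 libraries, with the longest between 20 and 29 bases. Of the 11 length classes plotted, none had genotypes without overlap. Insertions of 2 bases, for example, made up 3.72, 2.69 and 3.11% in WT and 4.13, 5.08 and 3.53% in deleted cells, and single-base insertions 7.74% ± 0.206 and 7.91% ± 0.578 (SD, n = 3).

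**Figure D4:**
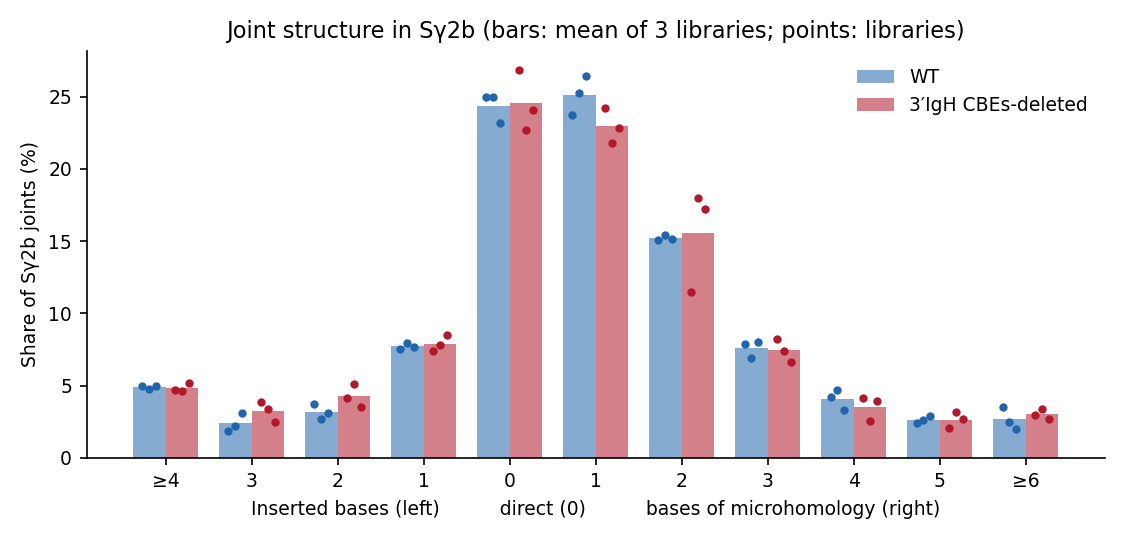
Share of Sγ2b joints (y axis, %) by number of inserted bases (left), direct joints (0) and bases of microhomology (right) on the x axis, with bars for the mean of 3 libraries and points for the libraries in WT (blue) and deleted cells (red). Direct joints and single-base microhomologies are the fullest classes in both genotypes, and points of the genotypes overlap in each class.

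Joint structure was also compared between orientations of the same library. Inversional joints had insertions in 21.1% ± 7.38 and deletional joints in 19.0% ± 1.56 of cases (SD, n = 6 libraries), with the inversional share higher in 4 of 6 libraries. For direct joints the values were 22.9% ± 7.24 and 24.7% ± 1.91, and for microhomology 56.1% ± 4.42 and 56.3% ± 2.32. The inversional microhomology share was lower in 5 of 6 libraries and higher in deleted replicate 1, at 62.8 against 51.7%. Without that library the difference was -2.46 points. Leaving out the only library in the other direction fixed the outcome in advance, at 5 of 5 in one direction. The test then had to give the smallest p that 5 libraries allow (exact sign-flip permutation test, p = 0.0625), so it decides nothing. With all libraries, in none of the 4 structure measures did all 6 libraries differ in the same direction (two-sided exact sign-flip permutation test, p = 0.625 to 0.90625). A library held 43 to 118 inversional joints.

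Of the 10 measures taken in Sγ2b, 4 had genotypes without overlap (inversional share, median position, insertion share and microhomology share). Over the 40 measures in Sγ2b, Sγ3, Sγ2a and Sμ, 45% had genotypes without overlap, so the Sγ2b count is near this background. The inversional share was also higher in every deleted library in Sγ3, and the insertion share in Sγ3 and Sγ2a. The insertion share was 4.60 points higher in deleted cells in Sγ3, and the difference in Sγ2b minus that in Sγ3 was -2.58 points (exact permutation of genotype labels, two-sided, p = 0.1, adjusted 0.254). In Sμ the microhomology share went the other way, and the genotype difference in Sγ2b minus that in Sμ was -4.61 points (exact permutation test, p = 0.1, adjusted 0.254). The inversional difference in Sγ2b exceeded that in Sμ by 2.92 points (exact permutation test, p = 0.1, adjusted 0.254). It was not distinguished from those in Sγ3 and Sγ2a (exact permutation test, p = 0.9 each).

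Sγ2b joints were compared with those of the other regions within each library. The inversional share was 10.2% in Sγ2b as a mean over the 6 libraries, and the difference was -12.3 points from Sμ and -4.11 points from Sγ3, with the same sign in 6 of 6 libraries (two-sided exact sign-flip permutation test, p = 0.03125, the smallest 6 libraries allow, adjusted 0.0820 over 21 comparisons). Against Sγ2a it was higher in 4 of 6 libraries (exact sign-flip test, p = 0.65625). Direct joints were more frequent in Sγ2b than in Sγ3 and Sγ2a in all 6 libraries, by 3.24 and 3.05 points, and insertions less frequent than in Sγ3 and Sμ, with differences of -3.72 and -2.22 points (exact sign-flip test, p = 0.03125, adjusted 0.0820 each). Microhomologies of 4 or more bases were rarer than in Sμ, with a difference of -1.76 points, and the mean microhomology length differed from that in Sμ by -0.138 bases, again in 6 of 6 libraries (same test and values). In all, 8 of 21 comparisons had 6 of 6 libraries in one direction, and none passed an adjusted p of 0.05. The difference in direct joints from Sγ3 was widest in deleted replicate 1, at 10.9 points, and was 1.71 points without that library. That from Sγ2a was as small as 0.247 points in 1 library, and deleted libraries 1 to 3 held only 71, 102 and 96 Sγ2a junctions. Among preys of at least 100 bases, 4 of the 21 had all 6 libraries in one direction. The calls that ended were the inversional share against Sγ3 (-2.26 points), insertions against Sγ3 (-2.36 points) and Sμ (-1.72 points) and direct joints against Sγ2a (3.12 points). The mean microhomology length against Sμ kept its call at -0.0882 bases. The part of prey length in these differences was not tested.

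**Figure D5:**
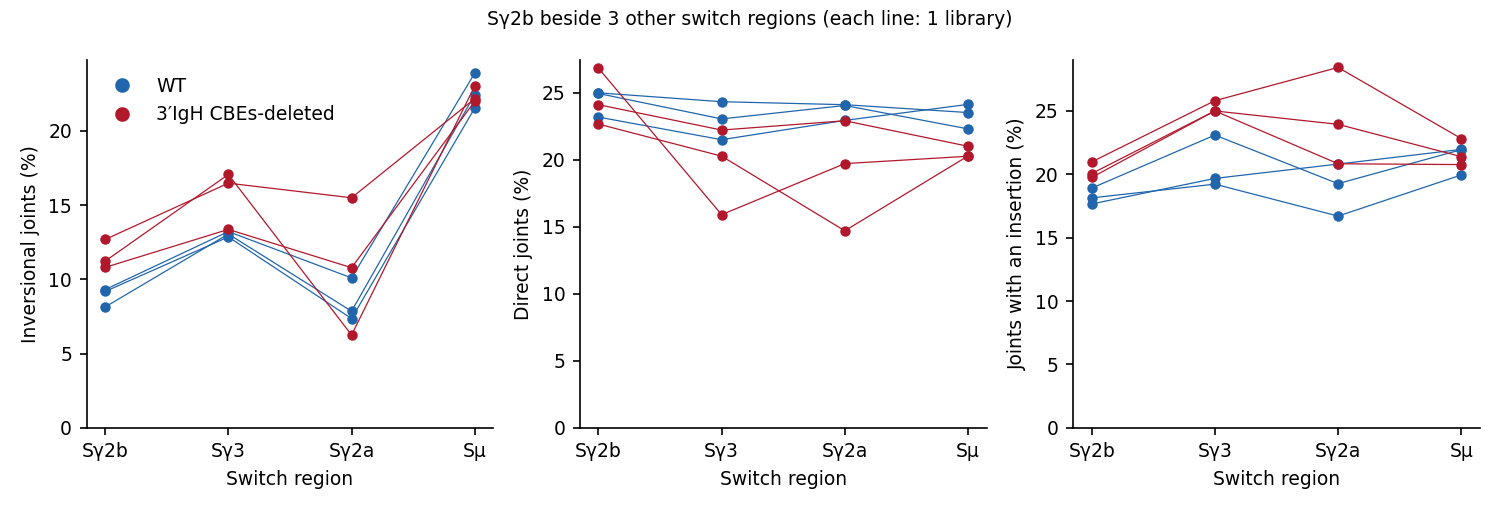
Inversional, direct and insertion shares (y axes, % of the joints of a region) in Sγ2b, Sγ3, Sγ2a and Sμ (x axis), with a line for each library in WT (blue) and deleted cells (red). In each library the inversional share of Sγ2b lies below those of Sγ3 and Sμ, and its direct share lies above those of Sγ3 and Sγ2a. With preys of at least 100 bases, the inversional difference from Sγ3 and the direct difference from Sγ2a no longer have all 6 libraries in one direction.

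The bait side of the joints was described by the bait end, counted in bases from the first aligned bait base at 114669262. Its median was 75, 74 and 77 bases in WT and 78, 75 and 78 bases in deleted cells, with overlap (exact permutation test, two-sided, p = 0.3), and without deleted replicate 2 it was 2.67 bases higher in deleted cells without overlap. Against the Sγ3 joints of the same libraries the median bait end was lower in 5 of 6 libraries (exact sign-flip permutation test, p = 0.09375). The median prey length was 138.5, 122 and 121 bases in WT and 126, 129.5 and 120 bases in deleted cells and overlapped. Its part in the measures of joint structure was not tested.

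The first prey base was set against the 4-base motifs that AID prefers, DGYW and its complement WRCH (D is A, G or T, Y is C or T, W is A or T, R is A or G, H is A, C or T), of which AGCT is a member on both strands. The rebuilt sequence placed 4461 of 4479 junctions. In WT libraries 1 to 3, 43.9, 41.7 and 40.8% of junctions lay in such a motif, and in deleted libraries 1 to 3, 43.6, 42.9 and 41.5% did (exact permutation test, two-sided, p = 0.8). The motif covered 37.1% of the core positions. Within AGCT alone lay 17.66, 16.47 and 16.94% in WT and 18.69, 19.11 and 17.75% in deleted cells. The mean was 1.49 points higher in deleted cells (exact permutation test, p = 0.1, not adjusted over the motifs tried). The libraries did not overlap, but only narrowly, with WT replicate 1 at 17.66% and deleted replicate 3 at 17.75%. AGCT covered 11.7% of the core positions. With the other alternative motif, RGYW or WRCY, the genotypes overlapped, at 39.06, 39.11 and 38.25% in WT and 40.06, 39.07 and 37.37% in deleted cells. By structure, joints with an insertion lay in DGYW or WRCH in 52.2 to 61.6% of cases over the 6 libraries, direct joints in 38.8 to 49.5% and joints with microhomology in 36.6 to 40%. Joints with an insertion therefore stood above the others in every library, but with microhomology the break position is uncertain by the shared bases. These differences by structure were not tested.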

How the data were processed

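The authors prepared CSR-HTGTS-seq libraries with a 5′Sμ bait, ran their HTGTS pipeline (Bowtie2 and mm9 are named in the submitters' processing notes), mapped reads to a hybrid of AJ851868 and mm9 and discarded duplicates. The deposited lists hold 1 row for each junction, with coordinates, strands and read positions and no normalization. Their totals, 2653 to 8261 junctions in the 6 libraries used, set the precision.

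Groups were taken from the sample labels. Positions, strands and overlaps of bait and prey in the read (B_Qend − Qstart + 1) were summarised for each library, since junctions of 1 library are not replicates. Genotypes were compared by exact permutation (all tests were two-sided), regions and orientations by exact sign-flip, and bins by a two-sided Fisher's test, with p-values adjusted after Benjamini and Hochberg, in Python 3.11.15 with numpy 2.4.6, pandas 2.3.3 and scipy 1.17.1. The inversional share and the shares of joint structures were also compared on pooled junctions by Fisher's test. A bin or a pooled share counts junctions as independent, so its p-value leaves out the spread between libraries. The bins named were the 5 fullest and every called bin, and the positions named were the 5 most used. The members, regions and measures were chosen with earlier results of these data known. WT replicates 2 and 3 as 1 library was an alternative chosen after seeing the data.

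Replicate numbers were checked for pairing: over 44 measures the deviations of same-numbered libraries from their group means correlated at 0.0220, -0.112 and -0.00443, so the numbers were not treated as pairs. Alternatives covered the denominator, repeated and shared junctions, prey length, region boundaries, orientation, bin width, motif, the replicate block and leaving out each library. Junctions of the αCD40/IL4 libraries entered no comparison.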

Additional observations from a re-analysis of the deposited data

Results flagged for a closer look

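Sγ2b junctions also appeared in the αCD40/IL4 libraries, whose stimulation directs switching to other regions and which entered none of the comparisons. The 3 WT libraries held 34 in all (11 of 3476, 10 of 3830 and 13 of 3499 window junctions, or 0.316, 0.261 and 0.372%), against limits of 0.0863, 0.0783 and 0.0857% that a count of 0 allows at 3 junctions. The 3 deleted libraries held 10 in all (6 of 1961, 1 of 2329 and 3 of 1267, or 0.306, 0.0429 and 0.237%), against 0.153, 0.129 and 0.237%, so that only replicate 1 stood above its limit. Of these junctions, 26 of 34 in WT and 4 of 10 in deleted cells lay in the core of Sγ2b.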

How the results depend on the processing

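The Sγ2b share of the window was lower in deleted cells under every alternative but one: with junctions outside Sμ as the denominator the difference was 15.98 points. With preys of at least 100 bases the microhomology difference was -3.42 points with overlap, and comparisons between regions with 6 of 6 libraries in one direction numbered 4. With deletional junctions only, the insertion and microhomology differences were 1.85 and -2.44 points with overlap. With AGCT alone the motif difference was 1.49 points, narrowly without overlap (17.66% in WT replicate 1 and 17.75% in deleted replicate 3). With RGYW or WRCY the genotypes overlapped. With 2-kb bins, 1 Sγ2b bin was called in its own region and 2 in the window. The difference in median bait end minus that in Sγ2a, which overlapped, was 3.83 bases without overlap for preys of at least 100 bases. With the replicate block (mean of the same-numbered differences, where a call means 3 of 3 in one direction), the median bait end difference was 1.67 bases and called, and no other call changed. With any 1 library left out, the inversional, median position and insertion differences were 2.14 to 3.08 points, -63.3 to -40.6 bases and 1.67 to 2.36 points. Groups without overlap cannot come to overlap when a library is left out, so direction and call could not change here. Leaving out 1 library gave 1 to 3 called Sγ2b bins, differences of 0.0284 to 0.128 bases in mean microhomology length, -0.749 to 0.184 points in long microhomologies and 1 to 2.67 bases in bait end, and 0 to 1 structure measures differing by orientation. In 1 leave-out each, the mean length (without WT replicate 1), long microhomologies (without WT replicate 3), bait end (without deleted replicate 2) and microhomology by orientation (without deleted replicate 1) became calls. The Sγ2b bin at 114548001 also became a call without deleted replicate 1. The difference in long microhomologies minus that in Sγ2a ran from -1.89 to 3.03 points with 1 library left out, and turned to 3.03 points, without overlap, when deleted replicate 1 was left out. Over all alternatives, the single comparisons between regions, orientations and genotypes by region gained a call 44 times and lost one 9 times. Of the gains, 2 had the other sign, and 585 times the comparison stayed on the same side. Leaving out a library can add such a call but cannot remove one, so these counts do not measure stability. The cause of the gains and losses was not tested. With 339 to 1285 junctions in a library, shifts of a few points in a share lie within the counting intervals of single libraries.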

Other observations

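The bases at the break were read for the direct deletional joints of the core, of which there were 176, 220 and 258 in WT libraries 1 to 3 and 79, 89 and 103 in deleted libraries 1 to 3. On the IgH sense strand the first prey base was G in 35.8, 42.7 and 36.8% in WT and in 27.8, 32.6 and 29.1% in deleted cells. It was T in 23.3, 19.1 and 21.3% in WT and in 27.8, 32.6 and 26.2% in deleted cells. G was thus lower and T higher in every deleted library, while A and C overlapped. For the base just before the break on the same strand, all 4 bases overlapped between the genotypes, with G at 38.6, 39.1 and 34.5% in WT and 30.4, 32.6 and 36.9% in deleted cells and T at 16.5, 17.3 and 20.5% and 22.8, 10.1 and 17.5%. The core as a whole held 38.4% G and 19.6% T. These core values are no expectation for direct joints, since joints with a shared base at the break were left out. This reading was chosen after its values were seen and was not tested.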
